A study of Mus musculus with 4 samples.

Results

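The droplet libraries of 2 wild type (WT) and 2 Ctcf-cKO mouse testes held many barcodes with far less RNA than a cell, and these barcodes are described here. In each of the 4 count tables, every barcode with fewer than 200 genes detected was taken, and its counts were summed per gene to give 1 low-gene sum per mouse. This rule took 17465 of the 24403 barcodes of the series. In each table the barcodes with 200 to 7000 genes and at least 4338 (WT 1), 2379 (WT 2), 1299 (Ctcf-cKO 1) or 909 (Ctcf-cKO 3) counts were summed as cells, 812 in all, for comparison. The 4 mice were C56BL/6J males of 15 weeks by the labels, with a Ctcf wt/wt genotype in the WT group and Stra8-iCre-Ctcf f/Δ in the Ctcf-cKO group. By the study's methods the WT mice were littermates that could also be f/f or wt/f. The Stra8-iCre transgene acts in germ cells, so the somatic cells of a Ctcf-cKO testis keep the floxed allele beside the deleted one. Testes were digested with enzymes, and the filtrates of 2 tubes were pooled for the Ctcf-cKO mouse. Cells were washed with PBS to lower the number of erythrocytes. The suspensions were loaded on the ddSEQ droplet system, 1 library per mouse. Values given as a series of 4 follow the order WT 1, WT 2, Ctcf-cKO 1 and Ctcf-cKO 3.

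In a droplet library a barcode marks RNA captured in a droplet, and most droplets hold no cell. Such a droplet still collects the RNA that dissociation set free into the suspension, from cells that broke or from cytoplasm that spermatids shed as they elongate. RNA of barcodes that carry few genes is for that reason often read as a sample of the suspension, mixed with debris, broken cells and errors in reading the barcode. Among the RNAs that such a sample can hold are transcripts of the late spermatid, of mitochondria, and of the somatic cells of the testis: the Leydig cells that make androgens, the Sertoli cells that nurse the germ cells, macrophages, peritubular cells and blood. The count tables alone do not tell free RNA from RNA in small particles, so the barcodes are called here by their rule and not as empty droplets.

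Each barcode was 18 bases long and joined 3 blocks of 6 bases, with 96 different blocks seen at each position, which allows 884736 combinations. Of all these combinations 388 were present in all 4 libraries, and 327 had fewer than 200 genes in each of them. The following 4 barcodes, all found under 200 genes in the 4 mice, are shown because they carry the blocks most frequent at the first position of the smallest barcodes, with that block in capitals.
Barcode a: CTTGAAtgcggtcttgaa
Barcode b: CTTGAAcgttatttcgca
Barcode c: CTCAATtgcggttgagac
Barcode d: GAAATAcggcgtgagctt
Barcode a had 87, 78, 24 and 32 genes in the 4 libraries, from 187, 199, 76 and 89 counts. Barcode b had 55, 49, 26 and 23 genes, barcode c 99, 48, 29 and 20, and barcode d 50, 56, 21 and 15. The same 18 bases thus held genes in libraries made from 4 different animals.

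The number of genes per barcode had 2 modes in every library. The lower mode lay at 29.3, 17.4, 14.7 and 8.72 genes and the upper mode at 470, 197, 83.0 and 69.8 genes, with a trough between them at 117, 69.8, 34.9 and 24.7 genes. The limit of 200 genes therefore met the 4 libraries at different places. In WT 1 it lay below the upper mode, in WT 2 it lay on it, and in both Ctcf-cKO mice it lay above it. Of the barcodes under 200 genes, 1304, 3086, 2114 and 2763 belonged to the lower mode and 63, 1306, 3478 and 3351 to the upper mode. Lower-mode barcodes gave 84774 of the 104983 counts in WT 1, 122336 of 590328 in WT 2, 72168 of 1081040 in Ctcf-cKO 1 and 52004 of 748090 in Ctcf-cKO 3. The low-gene sum of WT 1 was thus mostly lower mode, and the sums of WT 2 and of both Ctcf-cKO mice were mostly upper mode.

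**Figure D1:**
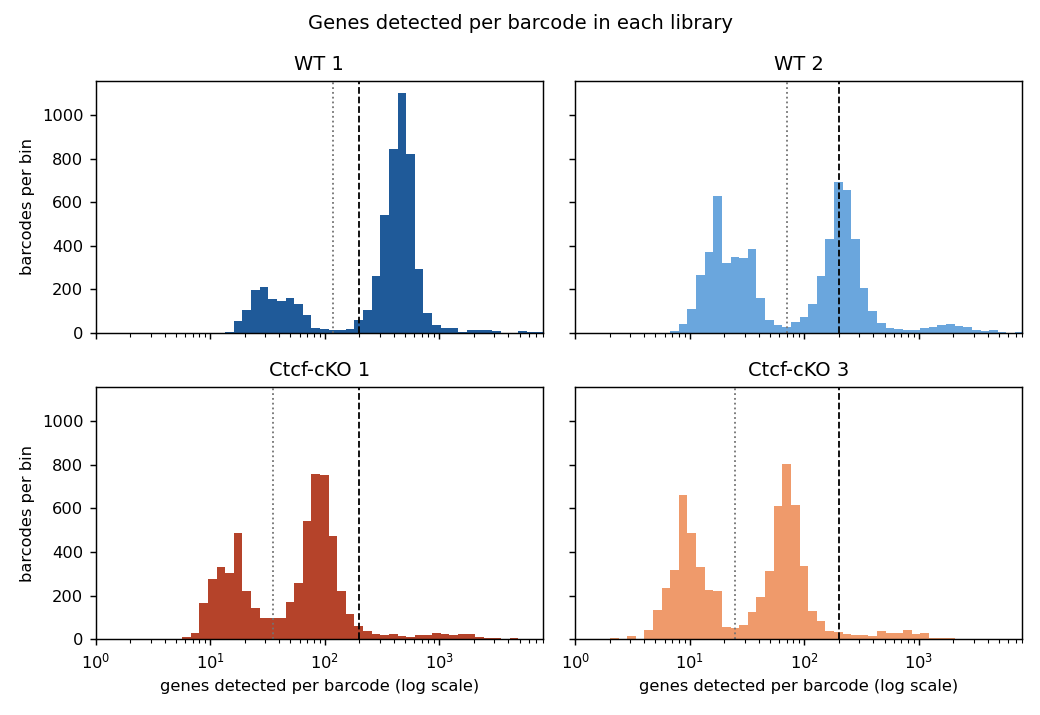
Barcodes per bin (y axis) against the genes detected per barcode (x axis, log scale) in the 4 libraries, with the limit of 200 genes as a dashed line and the trough between both modes as a dotted line. The upper mode sits at 470 genes in WT 1, right of the limit, and at 83.0 and 69.8 genes in the Ctcf-cKO mice, left of it.

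Barcodes shared between libraries lay mostly in the lower mode. WT 1 and WT 2 shared 950 barcodes, where an even use of all combinations would give 41. In the lower mode they shared 715 barcodes against 4.55 with even use, and in the upper mode 18 against 14.9. No pair of libraries shared more than 1 cell barcode. Of the barcodes under 200 genes, 73.0%, 43.2%, 30.6% and 29.1% were also found in another library. The block CTTGAA, carried by barcodes a and b at the first position, opened 4.89% to 5.6% of the lower-mode barcodes and 0.827% to 1.12% of the upper-mode barcodes, where even use gives 1.04%. The block CTCAAT of barcode c opened 3.88% to 5.52% of the lower-mode barcodes, and GAAATA of barcode d 3.15% to 5.14%. In WT 1 the 20 most frequent first blocks held 61.2% of the lower-mode barcodes and 25.6% of the upper-mode barcodes. The lower mode thus used a skewed set of first blocks in all 4 libraries and the upper mode an almost even one.

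Barcodes under 200 genes were a minority of the barcodes in WT 1 and nearly all of them in the Ctcf-cKO mice. They numbered 1367 of 5603, 4392 of 6474, 5592 of 5919 and 6114 of 6407, or 24.4%, 67.8%, 94.5% and 95.4%. They held 104983, 590328, 1081040 and 748090 counts, which was 1.57%, 12.1%, 40.8% and 46.9% of each library. Both Ctcf-cKO mice lay above both WT mice, with a mean of 43.8% against 6.86%, a difference of 37.0 percentage points. The 2-sided exact permutation test of 2 mice against 2 gave p = 0.333, which is the smallest value this design allows. With a limit of 100 genes, the shares were 1.23%, 2.90%, 23.3% and 38.2%. All these shares rest on where the limit met the modes of each library. With no limit of 200 genes, upper-mode barcodes outside the cells held 66.9%, 35.9%, 41.1% and 45.8% of the counts. There the genotypes overlapped and WT 1 lay highest. Lower-mode barcodes held 1.27%, 2.52%, 2.72% and 3.26%.

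**Figure D2:**
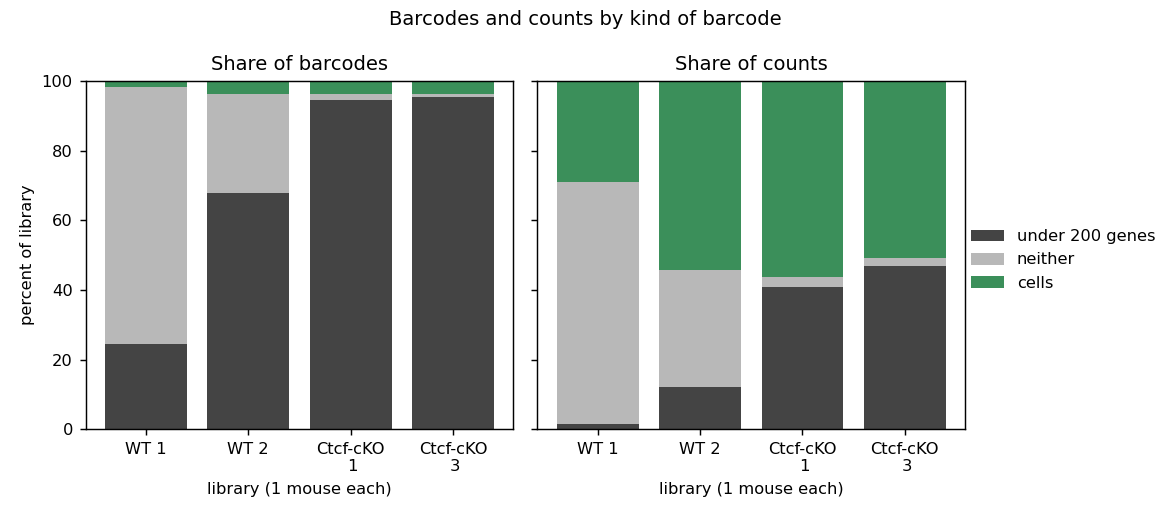
Percent of the barcodes (left) and of the counts (right) of each library in barcodes under 200 genes, in cells and in neither set. Barcodes under 200 genes hold 1.57% and 12.1% of the counts of the WT mice and 40.8% and 46.9% of those of the Ctcf-cKO mice.

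Library size ran against this share, from 6701235 counts in WT 1 and 4859455 in WT 2 to 2652665 and 1593546 in the Ctcf-cKO mice. The cells held 29.0%, 54.2%, 56.2% and 50.9% of the counts, and barcodes in neither set held 69.5%, 33.7%, 3.07% and 2.14%. In WT 1 these last were the upper mode itself, 4140 barcodes with a median of 451 genes. A median barcode under 200 genes had 53, 52, 201.5 and 110 counts from 36, 28, 66 and 41 genes. Around the limit, 13, 194, 21 and 12 barcodes had 190 to 199 genes and 19, 203, 11 and 11 had 200 to 209, so only WT 2 had many barcodes near it. Of all entries above 0 in these barcodes, 59.4%, 42.8%, 21.9% and 27.2% were a count of 1 and 6.17%, 9.24%, 30.6% and 23.2% a count of 4. In the cells of the same mice a count of 4 made up 11.5%, 12.1%, 29.1% and 22.9% of the entries, so the tables of the Ctcf-cKO mice were rich in this value in both kinds of barcode. How reads of 1 molecule were merged is not given in the sources used here.

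CTCF, the chromatin insulator that was deleted, was close to the limit of detection in the low-gene sums. The gene lies on chromosome 8 (GRCm38, 105636568 to 105682922, plus strand). It had 5, 7, 4 and 3 counts there, or 47.7, 11.9, 3.71 and 4.02 CPM, the counts of a gene scaled to 1000000 counts of named genes in the same sum. The pooled ratio of Ctcf-cKO to WT was 0.222, with an exact 95% interval of 0.0739 to 0.611 that covers counting error only. In the cells it had 20, 24, 0 and 4 counts, or 10.3, 9.14, 0 and 4.94 CPM, and a count of 0 in Ctcf-cKO 1 allows up to 2.02 CPM. Both kinds of barcode were lower in the Ctcf-cKO mice by the pooled counts, and the gene was too low to enter the test in the low-gene sums.

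The most abundant RNA of the low-gene sums was that of late spermatids. By mean level the leading genes were PRM1 and PRM2, the protamines that pack sperm DNA, then TNP1 and TNP2, the transition proteins that precede them. PRM1 had 14399, 32061, 31002 and 29936 CPM and TNP1 7133, 17148, 20559 and 17427 CPM. Further down came MT-ND4 and MT-CYTB of the mitochondrial genome, GM42418, and the spermatid genes LDHC (a testis lactate dehydrogenase), OAZ3 (a spermatid antizyme) and SMCP (a protein of the mitochondrial capsule of the sperm tail). None of the 4 protamine and transition protein genes passed the test between genotypes, and neither did LDHC, OAZ3 or SMCP. Transition proteins and protamines together made up 4.71%, 9.09%, 9.52% and 8.80% of the counts, and 11.9%, 9.40%, 8.47% and 9.83% in the cells. WT 1 stood apart, with 0.396 times its cells' share, while the other mice lay at 0.967, 1.12 and 0.895 times.

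The genotype comparison asks which RNAs differ in barcodes that hold few genes, with 1 sum per mouse and mice as replicates. Of 7865 genes tested, 460 rose in the Ctcf-cKO mice (5.85% of genes tested) and 46 fell (0.585%), by edgeR's quasi-likelihood test with a Benjamini-Hochberg adjusted p under 0.05. In each called gene the values of the 2 genotypes did not overlap. That adds little, since of all 7865 genes tested 1740 were higher in both Ctcf-cKO mice and 2521 lower in both. The median log2 fold change was 3.69 over the genes that rose and -1.57 over those that fell, beside 0.07 over all genes tested. With library totals alone in place of TMM factors, 277 rose and 70 fell, and the median of all genes moved to -0.17. The rises leaned on low WT counts. Of the 460 genes, 122 had 0 counts in both WT sums and 89 had 1 to 3. A gene at 0 in both WT mice passed the filter on low counts only through its Ctcf-cKO counts. So did genes with few WT counts, such as CYP17A1 (3 counts) and LYZ2 (7 counts). The numbers and medians of list members tested, given below, are for that reason tilted toward rises. Members that rose are to be read beside the 5.85% of all genes tested. Among the 2486 genes with at least 10 counts in every sum, 40 rose and 26 fell, and they included 20 of the 460. The number of calls moved with each mouse left out: 665 rose and 114 fell without WT 1, 1024 and 316 without WT 2, 131 and 1 without Ctcf-cKO 1, and 162 and 2 without Ctcf-cKO 3. A count of 0 allows up to 28.6 CPM in WT 1 and 5.09 CPM in WT 2, against 2.78 and 4.02 CPM in the Ctcf-cKO mice. Fewer cells of a type and less RNA per cell cannot be told apart in such sums.

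Because the limit of 200 genes met the libraries at different places, the comparison was repeated, after these values were seen, on the upper mode of each library without the cells (4201, 3143, 3577 and 3398 barcodes). There 966 of 11065 genes rose (8.73%) and 191 fell (1.73%). They included 432 of the 460 genes that rose and 34 of the 46 that fell, and no called gene changed direction. Both fits share most of their Ctcf-cKO counts, so this overlap is no independent check. Barcodes under 200 genes gave 1008872 of the 1090347 upper-mode counts in Ctcf-cKO 1 and 696086 of 730181 in Ctcf-cKO 3. In WT 1 they gave 20209 of 4486378 and in WT 2 467992 of 1745313. In the lower mode alone, with 1771 genes tested, 62 rose and 9 fell.

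**Figure D3:**
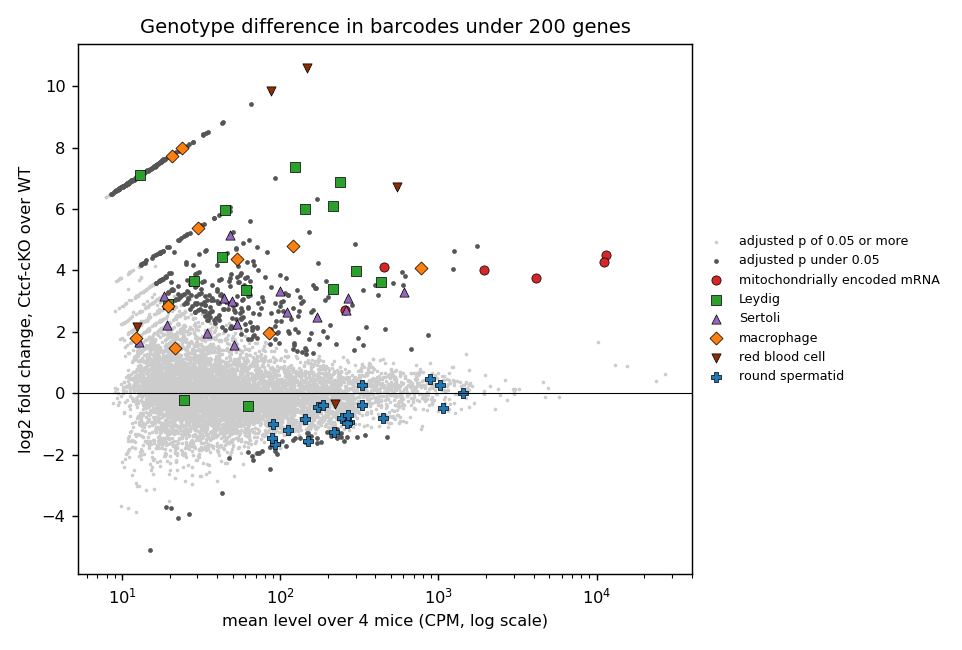
Log2 fold change of Ctcf-cKO over WT in barcodes under 200 genes (y axis) against the mean level over the 4 mice in CPM (x axis, log scale), with genes past the threshold in dark grey and 6 gene lists in colour. Most Leydig, macrophage, red blood cell and mitochondrial genes lie above 2, and 4 of the 20 round spermatid genes lie above 0. The band at the upper left holds genes at 0 counts in both WT mice, whose fitted fold change is not a bound.

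Among the lists that rose, mitochondrial mRNA held the largest share of the counts. All 6 mitochondrially encoded mRNAs tested and both mitochondrial rRNAs rose, with medians of 4.06 and 4.0 on the log2 scale. MT-ND4, a subunit of complex I of the respiratory chain (mitochondrial genome, 10167 to 11544, plus strand), had 305.6, 1823, 20586 and 22839 CPM in the low-gene sums. Both Ctcf-cKO mice lay far above both WT mice, by a log2 fold change of 4.50 ± 0.74 (SE, n = 2 and 2 mice, adjusted p = 0.000263 by edgeR). MT-CYTB, the cytochrome b of complex III, rose by 4.28 ± 0.72 and MT-RNR2, the large ribosomal RNA of the mitochondrion, by 4.04 ± 0.55. The 8 mitochondrial mRNAs present in the tables summed to 0.0859%, 0.554%, 5.30% and 5.77% of the counts. WT 1 and WT 2 differed from each other by over 6 times in this share, and the Ctcf-cKO mice differed little. In the upper mode the mitochondrial mRNAs also rose, all 7 of 7 tested. A high mitochondrial share is used as a sign of damaged cells, and its part in the other differences was not tested.

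Haemoglobin RNA followed the same direction. HBA-A1, an alpha chain of adult haemoglobin (chromosome 11, 32283511 to 32284465, plus strand), had 0, 0, 256 and 267 counts, or 0, 0, 237 and 358 CPM. Against the limit that a count of 0 allows in each WT library it was at least 17.6-fold higher in the Ctcf-cKO mice. HBB-BS, a beta chain (chromosome 7, 103826534 to 103828096, minus strand), had 47.7, 3.40, 858 and 1283 CPM and rose by 6.73 ± 0.62 on the log2 scale. HBB-BT, with 0, 0, 184 and 166 CPM, was at least 10.4-fold higher, though the near-identical beta genes can share reads. The beta chain was not at 0 in WT 1, where 5 counts gave 47.7 CPM. ALAS2, the haem synthesis enzyme of red cell precursors, had 0, 4, 20 and 18 counts with an adjusted p of 0.266. BPGM, which spermatids also express, had 39, 109, 210 and 99 counts and an adjusted p of 0.694. Of the 5 red blood cell genes tested 3 rose, with a median of 6.73, or 3.38 with the genes at 0 in both WT mice set to their bound. The list summed to 0.0420%, 0.0197%, 0.149% and 0.196% of the counts. In the upper mode the difference was smaller, since HBA-A1 reached 91.2 CPM in WT 1 there, beside 6.89, 209 and 318 CPM in the other mice.

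Of the 15 Leydig genes tested 12 rose and none fell, with a median log2 fold change of 3.99, or 3.66 with the gene at 0 in both WT mice set to its bound. CYP17A1, the enzyme that opens androgen synthesis from progestins (chromosome 19, 46667165 to 46673172, minus strand), had 9.55, 3.40, 496 and 453 CPM. Its WT sums held 3 counts together, and the pooled ratio was 111 with a counting interval of 37.7 to 537. HSD3B6, a 3-beta-hydroxysteroid dehydrogenase, had 0, 8.49, 427 and 430 CPM and rose by 6.09 ± 0.55 on the log2 scale (adjusted p = 1.67e-07 by edgeR, n = 2 and 2 mice), and its close paralog HSD3B1 had 28.6, 0, 237 and 308 CPM. These 2 genes can share reads. The cholesterol side-chain cleavage enzyme CYP11A1 had 1 count in WT and 443 in Ctcf-cKO, and the cholesterol carrier STAR 1 and 161. The angiotensinogen gene AGT, which the sums of all 4 mice detected, had 85.9, 71.3, 741 and 836 CPM and rose by 3.62 ± 0.40, and FABP3 rose by 3.99 ± 0.42. INSL3, the peptide hormone that defines the mature Leydig cell, had 0, 4, 47 and 21 counts and an adjusted p of 0.0719. CYP2A12 and SCP2 had log2 fold changes of -0.42 and -0.23 and did not pass the test. The list summed to 0.0353% and 0.0297% of the counts in the WT mice and to 0.362% and 0.361% in the Ctcf-cKO mice.

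Of 15 Sertoli genes tested, 10 rose and none fell, with a median of 2.71 on the log2 scale. CLU, the secreted chaperone clusterin (chromosome 14, 65968483 to 65981547, plus strand), had 95.5, 146, 1071 and 1099 CPM and rose by 3.31 ± 0.40 (adjusted p = 4.23e-06 by edgeR, n = 2 and 2 mice). AARD rose by 3.11 ± 0.40 from 38.2 and 74.7 CPM to 467 and 493 CPM, and the defensin DEFB19 by 2.71 ± 0.43. AMHR2, the receptor of anti-Müllerian hormone, had 2 counts in WT and 169 in Ctcf-cKO, a pooled ratio of 32.1 with a counting interval of 8.75 to 267. The transcription factors that define the Sertoli cell were low: SOX9 had 0, 6, 37 and 24 counts and the gene WT1 had 0, 3, 26 and 33, with adjusted p-values of 0.157 and 0.0649. FATE1 was at 0 in all 4 mice. The list summed to 0.0258%, 0.0599%, 0.325% and 0.327% of the counts.

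Macrophage RNA was also higher, with 7 of 10 genes tested past the threshold, none lower, and a median of 4.23, or 2.41 with 2 genes set to their bound. APOE, the lipid carrier that macrophages and Leydig cells both express (chromosome 7, 19696109 to 19699188, minus strand), had 95.5, 104, 1464 and 1446 CPM and rose by 4.09 ± 0.41 (adjusted p = 3.87e-07 by edgeR, n = 2 and 2 mice). LYZ2, lysozyme, had 0, 11.9, 275 and 197 CPM and rose by 4.79 ± 0.57. The complement genes C1QA, C1QB and C1QC rose too, C1QB from 9.55 and 52.6 CPM to 165 and 114 CPM. The chemokine PF4 and the mannose receptor MRC1 had 0 counts in both WT mice. ADGRE1, which encodes the F4/80 antigen, had 9 counts in Ctcf-cKO 3 and 0 elsewhere.

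Of the 14 peritubular and fibroblast genes listed, 6 entered the test and 5 rose, beside 5.85% of all genes tested. Among them were the matrix proteoglycan DCN (38.2, 131, 348 and 276 CPM, a log2 fold change of 1.85 ± 0.41, adjusted p = 0.00627 by edgeR, n = 2 and 2 mice) and the growth factor IGF1 (0, 18.7, 102 and 67.0 CPM). The list's median was 2.60, or 2.16 with PDGFRA set to its bound. In the upper mode 5 of 9 genes tested rose, with a median of 1.48. There the list made up 0.0279% of the counts in WT 1, beside 0.00668% in its low-gene sum. The smooth muscle genes ACTA2 and MYH11 had 5 counts each over all 4 mice, so the muscle side of that list was hardly present. PECAM1, the 1 endothelial gene tested, rose from 2 counts in WT to 84 in Ctcf-cKO, while VWF, CDH5 and TEK had 3, 7 and 0 counts in all. KIT, the 1 spermatogonial gene of 4 tested that rose, is also made by Leydig cells and had 0, 0, 26 and 17 counts. STRA8, whose promoter drives the Cre, had 3 counts, all in Ctcf-cKO 3.

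Nuclear noncoding RNAs and immediate early genes moved upward in part. MALAT1, a nuclear speckle RNA, had 28.6, 37.4, 194 and 297 CPM and rose by 3.0 ± 0.44 (adjusted p = 7.23e-05 by edgeR, n = 2 and 2 mice). NEAT1, which scaffolds paraspeckles, rose from 1 count in WT to 169 in Ctcf-cKO. These were the 2 of 6 nuclear RNAs tested that passed. Immediate early genes answer stress and growth signals within minutes. Of 11 tested, 4 rose (EGR1, IER3, JUNB and ZFP36), beside 5.85% of all genes tested. FOS, with 1, 23, 142 and 34 counts, had an adjusted p of 0.0922, and JUN 0.0512. The list's median was 1.74, or 1.51 with IER3 set to its bound.

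Few genes of the germ line passed the test between genotypes, which with 2 mice a group does not show that they were equal. None of 14 spermatocyte genes passed the test (median -0.42), and none of 20 elongating spermatid genes (median 0.31), of 5 transition protein and protamine genes (0.67), of 11 histone genes (0.26), of 19 tail genes (-0.20) or of 15 glycolysis genes of sperm (-0.13). The 1 epididymal gene tested, CST8, which the testis also expresses, had a log2 fold change of 0.60 and did not pass. Of 12 genes tested that the study names in its text, a list that is not independent of these samples, none passed either (median 0.11). Round spermatid genes were the list that lay lowest, with a median of -0.82. Of these 20 genes, 17 were lower in both Ctcf-cKO mice than in both WT mice. By the test 2 of them fell, beside 0.585% of all genes tested. Of all 7865 genes tested, 2521 were lower in both Ctcf-cKO mice and 1740 higher in both. Lower in both were also 12 glycolysis genes of the 15 (1 higher), 12 tail genes of the 19 (2 higher), 5 spermatocyte genes of the 14 (0 higher) and 4 elongating spermatid genes of the 20 (4 higher). IZUMO1, the sperm protein that binds the egg (chromosome 7, 45621811 to 45628823, plus strand), had 286, 188, 68.6 and 54.9 CPM, a log2 fold change of -1.57 ± 0.38 (adjusted p = 0.0123 by edgeR, n = 2 and 2 mice). TSSK4, a testis-specific kinase, had 439, 224, 91.8 and 117 CPM and a log2 fold change of -1.28 ± 0.36. In the upper mode 4 of the 20 fell.

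Ribosomal protein genes had a median of 0.74 over 46 tested, of which 2 rose: RPL14 (9.55, 23.8, 82.5 and 110 CPM) and RPS3 (66.8, 114, 244 and 275 CPM). Those 2 are no larger a share than the 460 of all 7865 genes tested that rose. Of 322 uncharacterised testis transcripts, known by their cDNA clone names, 2 rose and 5 fell, with a median of -0.30. Of these, 145 were lower in both Ctcf-cKO mice and 21 higher in both, beside 2521 and 1740 of all 7865 genes tested.

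Outside the lists, the largest rises by the fixed rule were all of genes at 0 counts in both WT mice. PRLR, the prolactin receptor, which Leydig cells carry, had 120 and 142 CPM in the Ctcf-cKO mice and was at least 7.78-fold higher. PTGR1, a prostaglandin reductase, was at least 5.14-fold higher, PKDCC, a secreted kinase, at least 5.09-fold, and SERPINA3G, a serine protease inhibitor, at least 4.14-fold. ZBTB20, a zinc finger repressor, was at least 4.03-fold higher, the cholesterol exporter ABCA1 at least 3.88-fold, the amino acid carrier SLC7A8 at least 3.86-fold and the acid ceramidase ASAH1 at least 3.32-fold. All 8 also rose in the upper mode, where neither WT mouse was at 0 and PRLR, for instance, had 7.82 and 5.74 CPM in them.

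The falls were smaller and were carried by genes that the WT sums detected. Their calls moved with the method: of the 46, DESeq2 also called 7 and library totals alone 37. GM37486, a processed pseudogene (chromosome 1, 178299396 to 178299800, plus strand), had 7, 20, 1 and 3 counts and the largest fall of those named, -3.94 ± 1.03 on the log2 scale (adjusted p = 0.0201 by edgeR, n = 2 and 2 mice). 4933436I01RIK had 95.5, 62.8, 9.27 and 2.68 CPM (-3.24 ± 0.77). ADAM29, a testis membrane protein of the ADAM family, had 248, 59.4, 16.7 and 21.4 CPM (-2.46 ± 0.61). The gene FAM186A came next (-2.17), then the transporter ABCC12 (-2.13), the single-strand DNA binding protein RPA1 (-2.04), ARMT1 (-1.97), CCDC105 (-1.94), MROH5 (-1.94) and the cilium gene CCDC40 (-1.92). In the upper mode RPA1, MROH5 and CCDC40 were on the same side with adjusted p-values of 0.0724, 0.0933 and 0.0839.

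The second comparison set each low-gene sum against the cells of the same library, with the library as a block. Of 8623 genes tested, 12 were higher in the barcodes under 200 genes (0.139%) and 2 were lower (0.0232%) by edgeR's quasi-likelihood test with an adjusted p under 0.05, and 654 had an unadjusted p under 0.05. Between both kinds of barcode, Pearson's r of log2(CPM + 1) across genes was 0.744, 0.909, 0.886 and 0.84 within the 4 libraries. Genes are not independent replicates, and both sums of a pair share 1 library, so these values only describe. The number of calls rose most when WT 1 was left out, whose low-gene sum is the smallest: without it 77 genes were higher and 107 lower. Without WT 2 there were 4 and 3, and without either Ctcf-cKO mouse 3 and 0.

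Mitochondrial RNA was the class that set barcodes under 200 genes apart from cells. Of 6 mitochondrial mRNAs tested 5 were higher, and both rRNAs, with medians of 2.07 and 2.67 on the log2 scale beside -0.10 over all genes. MT-RNR2 had 19.1, 246, 2381 and 2284 CPM against 35.6, 22.9, 164 and 245 CPM in the cells. It was higher in 3 of 4 mice and lower in WT 1, with a log2 difference of 2.92 ± 0.44 (adjusted p = 0.000817 by edgeR, n = 4 libraries). MT-CO1, a catalytic subunit of the terminal oxidase, differed by 2.51, MT-RNR1 by 2.41, MT-ND5 by 2.19, MT-ND4 by 2.12, MT-ND2 by 2.02 and MT-CYTB by 2.01. MT-ND1 had a difference of 1.96 with an adjusted p of 0.0527. In percent of counts the mitochondrial mRNAs stood at 1.27, 5.44, 7.09 and 5.56 times the share of the cells of the same mouse, so the excess was smallest in WT 1. Nuclear noncoding RNAs had a like pattern, at 0.749, 8.24, 4.34 and 3.36 times. Of their 5 genes tested all 5 lay above 0, with a median of 1.20, and 0 passed the test.

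**Figure D4:**
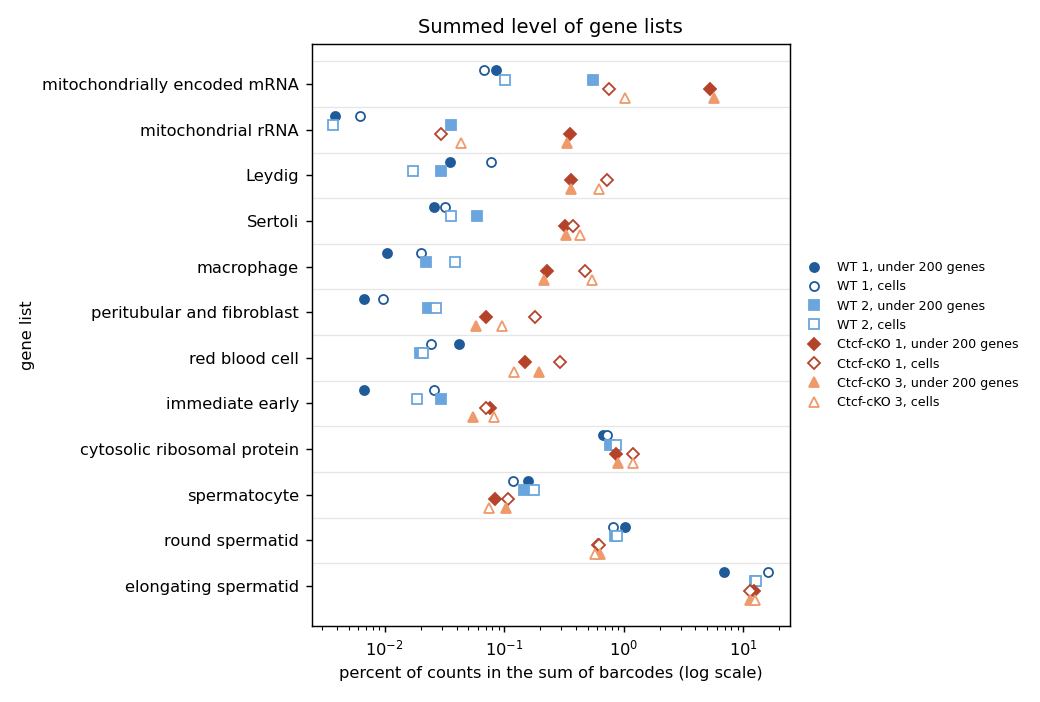
Summed level of 12 gene lists, in percent of the counts of a sum (x axis, log scale), in barcodes under 200 genes (filled) and in cells (open) of the 4 mice. Mitochondrial mRNA is at 0.0859% and 0.554% in WT 1 and WT 2 and reaches 5.30% and 5.77% in Ctcf-cKO 1 and Ctcf-cKO 3, where macrophage and Leydig genes lie below the level of the cells.

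The other 5 genes that were higher in barcodes under 200 genes were 1 transcription factor and 4 gene models. NFIA, a nuclear factor of developmental genes (chromosome 4, 97772734 to 98118874, plus strand), had 47.7, 83.2, 412 and 1043 CPM against 12.4, 12.6, 78.0 and 107 CPM in the cells. It was higher in all 4 mice, by 2.62 ± 0.29 on the log2 scale (adjusted p = 1.39e-05 by edgeR, n = 4 libraries), and in the low-gene sums it also rose in the Ctcf-cKO mice, by 3.53 ± 0.46. The predicted gene GM10800 (chromosome 2, 98666547 to 98667301, minus strand) had 0, 78.1, 176 and 204 CPM against 0, 4.57, 26.9 and 24.7 CPM, a difference of 3.18 ± 0.38, which in WT 1 rests on 0 counts in both sums. GM38021, a transcript of unproven status in the annotation, differed by 2.87, and GM8251, which did not differ between genotypes by the test (0.31, adjusted p = 0.786), by 1.93. GM37144 had the largest difference of the 12, 3.40, and is named although it fell outside the rule, because it was lower than the cells in WT 1 with 0 counts. The 2 genes that were lower both belong to the matrix of connective tissue. LTBP4, which binds latent transforming growth factor beta (chromosome 7, 27305136 to 27337692, minus strand), had 0, 1.70, 38.0 and 17.4 CPM against 19.6, 16.8, 184 and 158 CPM in the cells, a difference of -2.77 ± 0.41. MGP, matrix Gla protein, had 19.1, 37.3, 40.8 and 84.4 CPM against 10.8, 139, 237 and 151 CPM, lower in 3 of 4 mice (-1.66 ± 0.34).

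The macrophage list lay below the level of the cells in each mouse. All 12 macrophage genes tested had log2 differences below 0, with a median of -1.04, and none passed the test alone. That side was not particular to them. Of all 8623 genes tested 3501 lay above 0, and of 20 elongating spermatid genes 0 did. The macrophage list stood at 0.522, 0.576, 0.477 and 0.392 times the share of the cells of the same mouse. In WT 1 its low-gene sum rests on 11 counts from 2 genes. Leydig genes had a median of -0.65, and their summed share was 0.453, 1.73, 0.498 and 0.577 times that of the cells, so WT 2 went the other way. Sertoli genes had a median of 0.02 and stood at 0.80, 1.68, 0.867 and 0.753 times the share of the cells, and peritubular and fibroblast genes at 0.689, 0.866, 0.389 and 0.609 times. The red blood cell list stood at 1.72, 0.937, 0.504 and 1.62 times. The endothelial list, which rests on 2, 2, 40 and 57 counts, stood at 2.85, 0.212, 1.31 and 4.12 times, and its 1 tested gene, PECAM1, had a log2 difference of 1.35 that did not pass the test. By the rule the lower genes that missed the threshold were ENTPD2, CYC1, LAMB2, LRP1, SLC7A8, SERPINF1, ABCA1, FXYD1 and JUNB, of which ENTPD2 came closest with an adjusted p of 0.0527. Each of them had 0 counts in the low-gene sum of WT 1.

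Whether the genotype difference was the same in both kinds of barcode was tested as an interaction. None of 10864 genes passed in either direction by edgeR's quasi-likelihood test, 466 had an unadjusted p under 0.05, and DESeq2 also called 0. The genes with the largest estimates were PTGR1 (6.42), ZBTB20 (6.41), PRLR (5.98), NAB1 (5.36) and ABCA1 (5.24) upward and GM37486 (-3.49), CISD2 (-3.34), LRRK2 (-3.32), HBB-BS (-3.21) and VAV1 (-3.18) downward, in log2 units, each with an adjusted p of 0.965. All 5 upward genes had 0 counts in both WT low-gene sums, so their estimates are no bounds. The absence of a call does not show that the genotype difference was equal in both kinds. Without WT 2, 764 genes were higher and 49 lower, and without WT 1, 0 were higher and 23 lower.

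The 2 modes differed in composition, which is given as a description because the modes were set apart after the values were seen. Nuclear noncoding RNAs made up 0.131%, 0.0541%, 0.179% and 0.146% of the counts in the lower mode and 0.803%, 0.931%, 1.65% and 1.66% in the upper mode, so the upper mode lay above the lower in each mouse, and above the cells, which had 0.363%, 0.101%, 0.353% and 0.464%. Most of that list's counts came from GM42418 (chromosome 17, 39846958 to 39848788, plus strand), annotated as a long noncoding RNA. It lies in the region of chromosome 17 where this assembly carries a copy of the ribosomal RNA repeat. GM42418 had 2654, 8252, 14935 and 15119 CPM in the low-gene sums and 3536, 986, 3348 and 4509 CPM in the cells, and did not pass the test of either comparison, with adjusted p-values of 0.0977 between genotypes and 0.308 against cells. Mitochondrial rRNA was likewise higher in the upper mode than in the lower mode in each mouse. Mitochondrial mRNA instead was somewhat higher in the lower mode in 3 of the 4 mice.

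**Figure D5:**
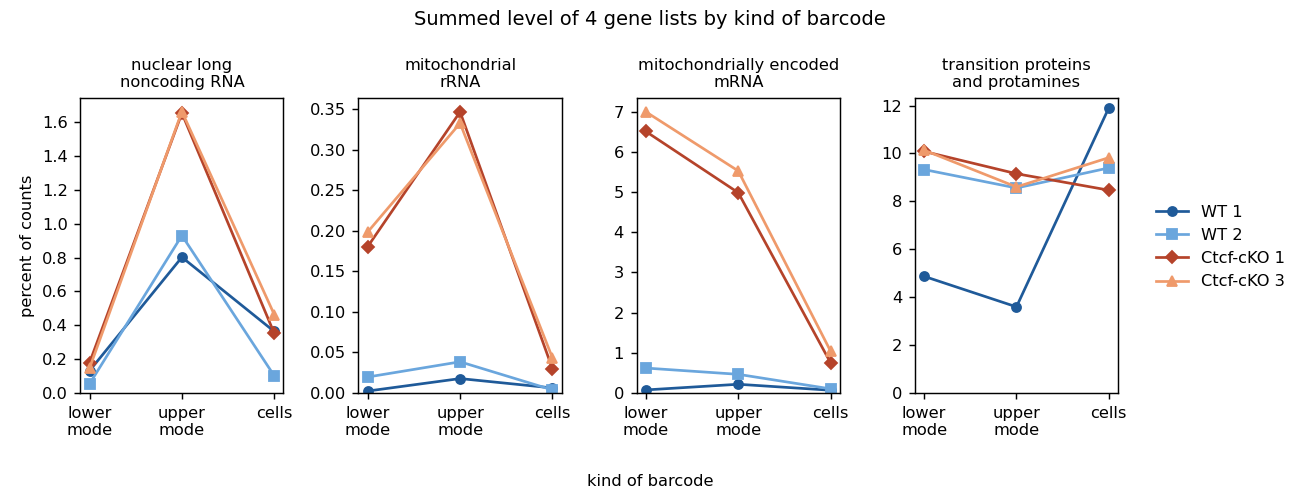
Summed level of 4 gene lists in percent of counts (y axis) in the lower mode, the upper mode and the cells of the 4 mice, with lines joining values of the same mouse. Nuclear long noncoding RNA peaks in the upper mode in all 4 mice, at 0.803%, 0.931%, 1.65% and 1.66%, while transition proteins and protamines differ little between the kinds of barcode except in WT 1.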

How the data were processed

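Libraries came from testes of 2 WT and 2 Ctcf-cKO mice (ddSEQ, 3′ kit). The authors aligned reads to GRCm38 and deposited raw counts per gene symbol and barcode, unnormalized. The counting tool and the merging of reads into molecules are not given in the sources used here. Of 25800 symbols, 21 to 23 per table had turned into dates (0.195% to 0.245% of counts) and were left out of the sums. The members, lists and rules were chosen with earlier results of these data known. Counts were summed per mouse, and sums held 104728 to 1079014 counts of named genes, which sets the precision. The test of the sums was the quasi-likelihood F test of edgeR 4.0.16 (R 4.3.3) with TMM factors, filterByExpr and a Benjamini-Hochberg threshold of 0.05, with the standard error as the log2 fold change over the square root of F. The cell comparison and the interaction had the library as a block. Each mouse is 1 library, so p-values between genotypes measure the spread between 2 mice per genotype. In WT that spread also holds the different modes of the 2 low-gene sums. For the cell comparison and the interaction, p-values measure the spread between libraries of the difference between both kinds of barcode. A count of 0 was given a floor of 3 counts per library. Intervals (exact, 95%) and floors cover counting error only. Shares were compared by 2-sided exact permutation tests. No doublet caller was run. Genes were matched to the GENCODE annotation of GRCm38 (259 of 259).

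Genes named are list members, the 10 highest by mean CPM, and per comparison up to 10 (interaction: 5) per direction with the largest change among genes past the threshold. If fewer than 3 passed, genes with an unadjusted p under 0.05 were taken. Both genotypes had to lie apart (against cells: the same direction in 4 libraries), at a mean of at least 50 CPM. Alternatives were DESeq2 1.42.0, other size factors and filters, fewer than 100 genes, thinned sums, counts taken as 1, genes left out, a mitochondrial limit of 10% on cells, no block and each mouse left out. Upper-mode barcodes, lower-mode barcodes and barcodes of 1 library were added after seeing the data. The tests were checked on simulated counts.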

Additional observations from a re-analysis of the deposited data

How the results depend on the processing

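Of the 73 named genes called between genotypes, none changed direction under an alternative that gave it a value. This held for 14 genes with at least 10 counts in every sum, 27 in lower-mode barcodes, 40 in thinned sums and 62 to 73 in the others. The genotypes lay apart in each of these genes from the start, so a change of direction was unlikely. With DESeq2 26 of 73 missed the threshold, and with fewer than 100 genes 28 of 67. Between genotypes (460 higher, 46 lower), DESeq2 called 221 and 7, library totals alone 277 and 70, at least 10 counts in every sum 40 and 26, fewer than 100 genes 148 and 13, thinned sums 157 and 30, upper-mode barcodes 966 and 191 and lower-mode barcodes 62 and 9. No filter on low genes left 24 lower and barcodes of 1 library 24 lower. Each mouse left out gave 131 to 1024 higher and 1 to 316 lower: 1024 and 316 without WT 2, 665 and 114 without WT 1, 131 and 1 without Ctcf-cKO 1, 162 and 2 without Ctcf-cKO 3. The median of all genes was 0.12 with RLE factors and 0.13 with DESeq2. Against cells (12 higher, 2 lower), no filter gave 22 and 4, at least 10 counts in every sum 0 and 0, thinned sums 7 and 0, lower-mode barcodes 7 and 10 and barcodes of 1 library 24 and 4. Leaving out mitochondrial and haemoglobin genes gave 5 and 1, fewer than 100 genes 1 lower and upper-mode barcodes 0 lower. Each mouse left out gave 3 to 77 higher and 0 to 107 lower: 77 and 107 without WT 1, 4 and 3 without WT 2, and 3 and 0 without either Ctcf-cKO mouse. Without the library as replicate block 0 were higher and 0 lower. For the interaction (0 and 0), no filter gave 2 higher, fewer than 100 genes 1 higher and upper-mode barcodes 1 lower, and each mouse left out 0 to 764 higher and 0 to 49 lower. The cause of these moves was not tested. The difference in the share of counts was 31.7 to 42.3 points with each mouse left out. No paired analysis was possible for the genotype because the groups share only 1 replicate number. Of abundant genes that were not called, OAZ3 turned to -0.0727 with library totals, LDHC to 0.0745 with at least 10 counts, 0.00734 with fewer than 100 genes and 0.0140 with counts taken as 1, and SMCP to 0.0870, 0.0845 and 0.23 under these. With each mouse left out, PRM2 ran from -0.0655 (without WT 1) to 1.13, LDHC from -0.29 to 0.0840 (without WT 2), OAZ3 from -0.22 (without WT 1) to 0.76, and SMCP from -0.47 to 0.40 (without WT 2), at 0.03 without Ctcf-cKO 3. Where an arm kept 1 mouse, it was assumed to vary like the other arm. Depth limits WT 1 most, where a count of 0 allows 28.6 CPM.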
